A study of Mus musculus with 6 samples.

Results

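The genes described here encode 7 Toll-like receptors (Tlr1, Tlr2, Tlr3, Tlr4, Tlr6, Tlr7 and Tlr9), the related receptor Cd180, and 2 proteins that the receptors need, Unc93b1 and Myd88. They were taken by name, as 10 of 21883 protein-coding genes, and their open chromatin was read from ATAC-seq peak lists of immature B cells (B220+CD93+) of the mouse spleen. ATAC-seq marks open DNA by the insertions of the Tn5 transposase, and a peak is a stretch where insertions pile up. A first group of 3 libraries came from Tcrd-GDL mice that received diphtheria toxin (DTx) intraperitoneally at 15 ng per g, in 2 doses separated by 48 h, and were analysed on day 8 after the first dose. A second group of 3 libraries came from untreated mice of the same strain. In Tcrd-GDL mice, the γδ T cells carry a fluorescent reporter and the diphtheria toxin receptor, so the toxin removes them. The untreated mice carry the same transgenes, were not injected with a vehicle as far as the labels say, and have their γδ T cells. The sources used here do not give the age of the mice or say whether each library is from a separate mouse. The p-values therefore reflect only the spread between these libraries, which may be technical.

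Toll-like receptors are germline-encoded sensors of microbial molecules, and on B cells they act beside the antigen receptor. Receptors at the cell surface bind outer components of microbes, such as lipopeptides and lipopolysaccharide, while endosomal receptors bind nucleic acids and reach the endosome only with the chaperone encoded by Unc93b1. After binding, most of them recruit the adaptor encoded by Myd88 through a shared intracellular domain, and NF-κB and interferon regulatory factors are then activated. In B cells these signals drive proliferation and antibody secretion, and Tlr7 and Tlr9 are known for their part in responses to self nucleic acids.

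The lists held 44661, 56266 and 60811 peaks in DTx 1, 2 and 3, and 36760, 42504 and 56503 peaks in untreated 1, 2 and 3. DTx 1 and untreated 3 have the layout of MACS2's narrow mode and the other 4 lists that of its broad mode, so values are also given within each layout. The sources used here give no read totals, so the depth is unknown and no interval that needs it is given. The strength of a peak is given as its within-list percentile, the rank of its −log10 q value among all peaks of its own list, where 100 is the strongest peak. Ranks move with the length of a list, so the groups were compared in equal-length lists, the 36760 strongest peaks of each library. The gene table has no strand, so the strongest peak no more than 1 kb from the lower or the higher end of a gene is taken and called its gene-end peak. Of 11 B lineage markers, 10 had a gene-end peak in all 6 deposited lists, among them Cd79a, Pax5, Ebf1 and Cd93. Of 12 myeloid markers, which label cells rich in surface Toll-like receptors, 3 to 5 were called per DTx list and 2 to 4 per untreated list. Lyz2, Adgre1, Mpo, S100a8, S100a9, Cx3cr1 and Vsig4 were called in none, and Cd68 was the myeloid marker called in all 6. Itgam and Fcgr1 were each called in 3 DTx and 2 untreated lists, at up to percentile 62.7 and 52.6. Csf1r was called in 1 DTx and 3 untreated lists, and Marco in 2 DTx lists alone. Of 8 dendritic cell markers, 5 were called in every list (Xcr1, Zbtb46, Clec9a, Siglech and Flt3) and Itgax, Ccr9 and Cd209a in none. Of 9 T cell markers, 2 to 6 were called per DTx list and 3 to 4 per untreated list, with Cd3d and Lat in all 6 and Cd3e in none. Among markers called in all 6 lists, the median of their median percentiles was 83.2 for B lineage, 86.7 for T cell, 64.0 for dendritic cell and 59.1 for myeloid markers. The highest median in each list of markers was 97.7 for Ms4a1, 95.6 for Cd3d, 92.0 for Xcr1 and 59.1 for Cd68. Some markers of other cells thus ranked as high as B lineage markers. The part of other cells in the peaks below was not tested.

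Gene-end peaks were found at 9 of the 10 genes in all 6 deposited lists, a state shared by 49.2% of protein-coding genes. The exception was Tlr7. Their strength varied widely. Among the 10771 other genes called at an end in every list, the median gene stood at percentile 84.4, and Myd88, Tlr9, Tlr4 and Cd180 had a higher median than that while Unc93b1, Tlr1, Tlr2, Tlr3 and Tlr6 had a lower one. The medians over 6 lists were 98.3 for Myd88, 96.3 for Tlr9, 93.3 for Tlr4, 86.0 for Cd180, 69.8 for Unc93b1, 59.8 for Tlr1, 57.4 for Tlr2, 49.7 for Tlr3 and 43.9 for Tlr6. Over the 6 lists the ranges of neighbours in that order overlapped at each step but that from Tlr9 (95.4 to 98.2) to Tlr4 (89.2 to 95.3).

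**Figure D1:**
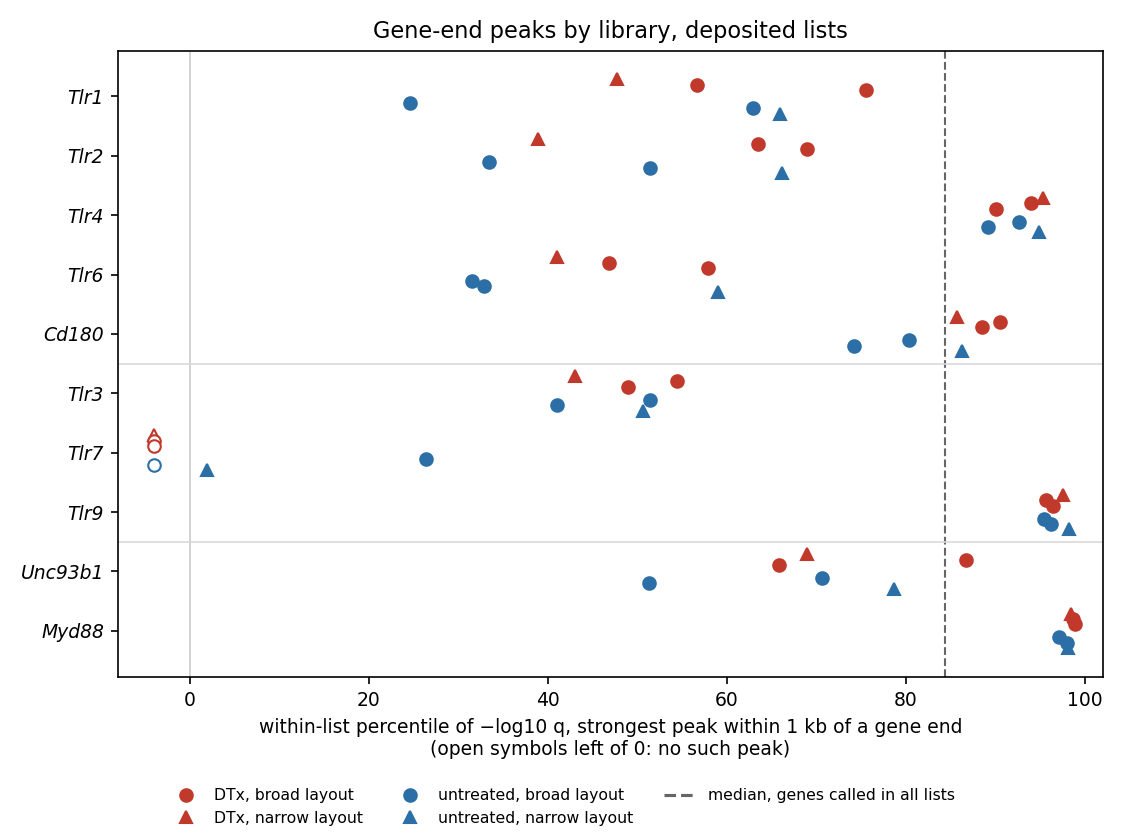
Within-list percentile of −log10 q (horizontal axis) of the strongest peak within 1 kb of a gene end, for each of the 10 genes (rows) in 3 DTx and 3 untreated deposited lists. Each symbol is 1 library, open symbols left of 0 mean no such peak, and the dashed line is the median of 84.4 over genes called in every list. Myd88, Tlr9 and Tlr4 lie to the right of the line in every library, and for Tlr7 2 untreated libraries alone have a value.

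Among the surface receptors, Tlr1, Tlr2 and Tlr6 had weak gene-end peaks, Tlr4 a strong one and Cd180 one near the middle. The median of Tlr4 was above that of 75.2% of the other genes called in every list, and that of Cd180 above 53.8%. Tlr2 (gene ID 24088; mm10 chr3:83836272-83841824) encodes the shared partner of Tlr1 and Tlr6 in the recognition of bacterial lipopeptides. Its gene-end peak stood at percentile 38.9, 63.5 and 69.0 in DTx 1, 2 and 3, and at 33.5, 51.4 and 66.1 in untreated 1, 2 and 3. The groups overlapped, and the lowest value came from untreated 1, the shortest list. The peak lay in the region chr3:83840859-83842017, over the annotated start of the gene at position 83841608. A stronger region lay 21090 bp outside the gene (chr3:83862914-83863460), at percentile 87.3, 93.1 and 91.0 in the DTx lists and 88.7, 91.1 and 88.2 in the untreated lists. Tlr2 thus had its strongest site in 50 kb away from its own ends.

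Tlr1 (gene ID 21897; chr5:64924680-64933600) and Tlr6 (gene ID 21899; chr5:64953092-64970942), whose products each pair with that of Tlr2, are neighbours on chromosome 5 and share 9 of the regions counted for them. The gene-end peak of Tlr1 stood at percentile 47.7, 56.7 and 75.6 in the DTx lists and at 24.6, 63.0 and 65.9 in the untreated lists. It covered the annotated start at 64933558 in every list, whereas the other annotated start at 64932699 was under no peak. A small region 194 bp from that second start was called in 1 DTx and 1 untreated list. For Tlr6 the percentiles were 41.0, 46.8 and 57.9 in the DTx lists and 31.5, 32.9 and 59.0 in the untreated lists. This weak Tlr6 peak (chr5:64968863-64970449) also lies within 1 kb of an end of Fam114a1, and the strong Tlr6 site lay inside the gene, in a region that holds its 2 annotated starts at 64959166 and 64960048. The start at 64960048 was under a peak in 3 DTx lists and 1 untreated list. That region (chr5:64959042-64961710, 5950 bp from the nearest gene end) reached percentile 88.8, 85.9 and 87.8 in the DTx lists and 90.01, 93.7 and 92.0 in the untreated lists. In DTx 2 and DTx 3 it was 1 peak of 2669 and 2667 bp, and in the other 4 lists it was 2 separate peaks, the weaker over the start at 64959166 and the stronger between 1479 and 2544 bp from it. Read by gene ends alone, Tlr6 would appear as the weakest of the 9 genes.

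Tlr4 (gene ID 21898; chr4:66827551-66846581) encodes the receptor for lipopolysaccharide, which it binds with the co-receptor encoded by Ly96. Its gene-end peak stood at percentile 95.3, 94.0 and 90.1 in the DTx lists and at 92.6, 89.2 and 94.9 in the untreated lists, with fold enrichment over background, the authors' own value for the peak, of 16.5 and 18.5 in the narrow lists DTx 1 and untreated 3. In the broad lists the enrichment was 7.03 and 6.45 in DTx 2 and 3, and 6.48 and 7.07 in untreated 1 and 2. The peak lay at the lower-coordinate end of the gene (region chr4:66827265-66828575). A second region inside the gene (chr4:66842989-66843990) ranged from 67.7 to 81.4 in the DTx lists and from 62.1 to 79.8 in the untreated lists. Beyond these, Tlr4 had no region called in all 6 lists within 50 kb, the sparsest surroundings among the 5 surface receptor genes, with 2 peaks in each equal-length list.

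Cd180 (gene ID 17079; chr13:102693547-102706631) encodes a receptor related to Tlr4 that lacks the signalling domain of the Toll-like receptors, is paired with the product of Ly86, and is known from B cells. Its start lay under a peak at percentile 85.7, 90.6 and 88.5 in the DTx lists and 80.4, 74.3 and 86.3 in the untreated lists. A stronger region lay 3082 bp from the start (chr13:102689227-102690465), at 96.5, 97.7 and 98.2 in the DTx lists and 93.4, 96.5 and 95.9 in the untreated lists. Inside the gene, another region (chr13:102699957-102700982) ranged from 79.2 to 81.5 in the DTx lists and from 67.1 to 84.1 in the untreated lists. With 16 regions in or within 50 kb, of which 9 were in all 6 lists and 5 in 1 list alone, Cd180 had the most regions of the surface receptor genes. In equal-length lists it did not lead, with a mean of 9.5 peaks against 9.67 for Tlr1.

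The bases before the starts of surface receptor genes are shown for Tlr1, Tlr2 and Cd180, since each start lay under a peak in all 6 lists. Capitals mark matches, on either strand, to the 10 motifs searched, which were GAGGAAGT (PU.1 type), GGAANNGAA (ETS-IRF composite), GAAANNGAA (interferon-stimulated response type), ATGCAAAT (octamer), CACGTG and CAGGTG (E boxes), GGGCGG (Sp1 type), GGGANTTTC (kappa B type), TGACGTCA (cyclic AMP response type) and TGANTCA (AP-1 type). Sequences are RefSeq's for GRCm38.p6, the assembly of mm10, 250 bases in the direction of transcription up to the base before the start. The Tlr1 stretch is chr5:64933559-64933808 on the minus strand, the Tlr2 stretch chr3:83841609-83841858 on the minus strand, and the Cd180 stretch chr13:102693297-102693546 on the plus strand.
Tlr1: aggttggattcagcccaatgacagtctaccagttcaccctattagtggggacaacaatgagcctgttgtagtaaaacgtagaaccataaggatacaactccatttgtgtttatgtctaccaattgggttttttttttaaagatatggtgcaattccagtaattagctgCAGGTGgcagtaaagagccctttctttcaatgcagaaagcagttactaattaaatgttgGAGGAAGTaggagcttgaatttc
Tlr2: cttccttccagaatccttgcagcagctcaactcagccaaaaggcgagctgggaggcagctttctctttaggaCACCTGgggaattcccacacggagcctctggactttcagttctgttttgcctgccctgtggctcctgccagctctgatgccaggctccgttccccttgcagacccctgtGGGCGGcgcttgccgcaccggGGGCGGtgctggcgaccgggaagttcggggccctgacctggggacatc
Cd180: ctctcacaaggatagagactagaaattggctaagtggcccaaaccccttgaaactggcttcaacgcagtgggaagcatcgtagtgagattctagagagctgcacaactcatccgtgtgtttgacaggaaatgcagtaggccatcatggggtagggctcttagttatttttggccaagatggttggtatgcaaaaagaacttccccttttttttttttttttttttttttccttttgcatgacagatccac
In Tlr1, GAGGAAGT, found in 2.23% of 21262 such stretches, lay 23 to 16 bases before the start, and CAGGTG (16.9%) 82 to 77 bases before it. In Tlr2, GGGCGG, found in 42.6% of stretches, occurred at 69 to 64 and 48 to 43 bases before the start, and CAGGTG 178 to 173 bases before it. Cd180 held none of the 10 motifs, so its sequence has no capitals. These are matches of letters only.

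Among the endosomal receptors, Tlr9 had the strongest gene-end peak, Tlr3 a weak one, and Tlr7 none in any DTx list. Tlr9 (gene ID 81897; chr9:106222598-106226876) encodes the receptor for DNA with unmethylated CpG. Its peak stood at percentile 97.6, 95.7 and 96.5 in the DTx lists and 95.4, 96.2 and 98.2 in the untreated lists. The narrow lists DTx 1 and untreated 3 gave the highest values of their groups, and the groups overlapped. The region (chr9:106221976-106223266) covered the start in every list, with a fold enrichment of 16.9 and 15.4 in the narrow lists DTx 1 and untreated 3. In the broad lists it was 5.98 and 5.81 in DTx 2 and 3, and 6.97 and 6.16 in untreated 1 and 2. Of 12 regions counted for Tlr9, 8 were in all 6 lists, and 4 lay within 1 kb of an end of a neighbouring gene (Ppm1m, Twf2 or Alas1).

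Tlr3 (gene ID 142980; chr8:45395665-45411075) encodes the sensor of RNA duplexes, which signals through the adaptor encoded by Ticam1 rather than Myd88. Its gene-end peak stood at percentile 43.0, 54.4 and 48.9 in the DTx lists and 51.4, 41.1 and 50.6 in the untreated lists. The groups overlapped. The region (chr8:45409692-45410503) covered the start at 45410380. A somewhat stronger region lay 4541 bp from the start (chr8:45414921-45415540), at 64.7, 70.1 and 68.5 in the DTx lists and 60.9, 65.4 and 74.0 in the untreated lists. Besides these, none of the other 4 regions counted for Tlr3 was in all 6 lists.

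Tlr7 (gene ID 170743; chrX:167303380-167330574) encodes the receptor for RNA rich in uridine and guanosine. It had a gene-end peak in 0 of 3 DTx lists and in 2 of 3 untreated lists, a direction (more untreated than DTx lists) found for 2.36% of genes. The untreated values were 26.4 in untreated 1 and 1.92 in untreated 3, and they came from different peaks. The peak of untreated 1 (chrX:167301904-167302406) ended 974 bp from the lower-coordinate end of the gene. The other 5 lists held a peak at the same place, at percentile 16.0, 13.3 and 25.8 in the DTx lists and 14.7 and 27.8 in untreated 2 and 3, whose edges stopped between −1008 and −1030 bp from the gene (the sign marks the side of lower coordinate), outside the limit. The peak of untreated 3 (chrX:167330193-167330621) was near the bottom of its list. The strongest Tlr7 region lay inside the gene, 1334 bp from the higher-coordinate end (chrX:167328297-167329240), and was called in all 6 lists. It stood at percentile 79.0, 73.9 and 82.5 in the DTx lists and 72.6, 67.7 and 75.7 in the untreated lists. With a limit of 2 kb, Tlr7 had a gene-end peak in 3 of 3 DTx and 3 of 3 untreated lists. The call in untreated 1 thus rested on the edge of a peak that all 6 lists held, and 13 other genes were called at an end in the same 2 lists alone.

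**Figure D2:**
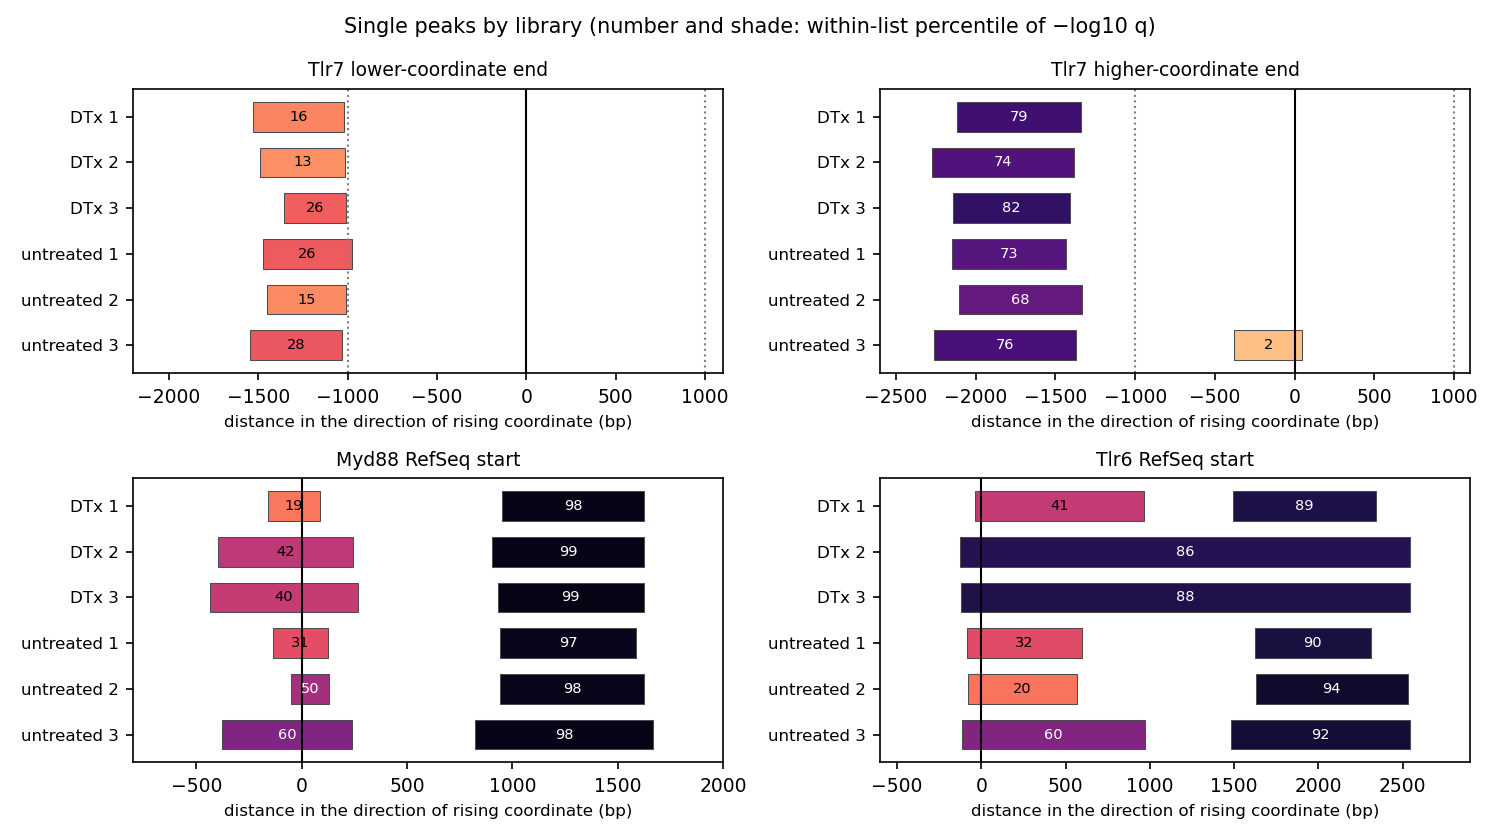
Peaks of each library (rows, DTx above untreated) at both ends of Tlr7 and at the annotated starts of Myd88 and Tlr6, with the distance in bp from that end or start on the horizontal axis. Numbers and shade give the within-list percentile, and dotted lines the 1 kb limit. At the lower-coordinate Tlr7 end all 6 libraries have a peak and that of untreated 1 alone reaches within 1 kb, at 974 bp.

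The bases before the starts of Tlr9 and Tlr3 are shown as those of the strongest and the weakest endosomal start peak, from RefSeq as above. The Tlr9 stretch is chr9:106222348-106222597 on the plus strand and the Tlr3 stretch chr8:45410381-45410630 on the minus strand. Capitals mark motif matches.
Tlr9: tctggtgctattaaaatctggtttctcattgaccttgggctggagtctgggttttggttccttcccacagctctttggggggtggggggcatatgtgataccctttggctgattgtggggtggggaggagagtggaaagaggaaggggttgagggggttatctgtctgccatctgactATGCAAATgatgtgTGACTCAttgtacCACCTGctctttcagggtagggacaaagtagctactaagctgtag
Tlr3: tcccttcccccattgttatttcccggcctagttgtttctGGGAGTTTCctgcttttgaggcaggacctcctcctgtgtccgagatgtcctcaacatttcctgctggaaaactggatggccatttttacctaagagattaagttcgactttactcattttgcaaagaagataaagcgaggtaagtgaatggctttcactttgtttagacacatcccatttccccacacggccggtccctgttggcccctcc
In Tlr9 an octamer, ATGCAAAT, lay 72 to 65 bases before the start, a motif in 1.58% of stretches. It was followed by TGANTCA (6.13%) at 58 to 52 bases and CAGGTG (16.9%) on the other strand at 45 to 40 bases. The stretch held 0 CpG pairs, against a median of 10 over all 21262 stretches and of 5 over the 10 stretches of these genes. In Tlr3, GGGANTTTC, found in 0.917% of stretches, lay 211 to 203 bases before the start. Of the remaining motifs, GAAANNGAA (6.83%) occurred before a start of Tlr6 and of Myd88 and CACGTG (6.63%) before the second start of Tlr1, whereas GGAANNGAA (6.64%) and TGACGTCA (1.92%) were in none of the 10 stretches. The median GC content was 45.4% over the 10 stretches and 55.6% over all.

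Unc93b1 and Myd88 had gene-end peaks in every list. Unc93b1 (gene ID 54445; chr19:3935158-3949340) encodes the transmembrane protein that carries the endosomal receptors out of the endoplasmic reticulum. Its gene-end peak stood at percentile 69.0, 86.8 and 65.9 in the DTx lists and 70.6, 51.3 and 78.7 in the untreated lists. Its width varied too, at 219, 247 and 1731 bp in DTx 1, 2 and 3 and 1450, 1703 and 388 bp in untreated 1, 2 and 3. Neither its rank nor its width separated the groups. A region inside the gene (chr19:3943077-3943792) was stronger, at 86.6, 95.0 and 95.5 in the DTx lists and 76.0, 90.3 and 92.7 in the untreated lists. The strongest region within 50 kb (chr19:3912473-3913295) ranged from 98.1 to 99.3 in the DTx lists and from 97.6 to 99.0 in the untreated lists. It lies within 1 kb of ends of Aldh3b1 and Ndufs8. Other regions counted for Unc93b1 lie within 1 kb of an end of Tcirg1, Aldh3b1, Aldh3b2 or Acy3.

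Myd88 (gene ID 17874; chr9:119335934-119340018) had a gene-end peak at percentile 98.5, 98.7 and 98.9 in the DTx lists and 97.1, 98.0 and 98.1 in the untreated lists. This peak (region chr9:119340841-119341686) lay 823 bp beyond the gene, within 1 kb of an end of the neighbouring gene Acaa1a. Over the annotated start of Myd88 itself, at 119340018, a separate and much weaker region (chr9:119339582-119340284) stood at 19.2, 42.4 and 40.5 in the DTx lists and 31.2, 49.9 and 59.9 in the untreated lists. Its fold enrichment was 2.74, 2.23 and 2.1 in the DTx lists and 2.56, 2.71 and 4.22 in the untreated lists, against 17.0, 7.69 and 8.13 in the DTx lists and 7.02, 7.54 and 15.0 in the untreated lists for the peak at Acaa1a. The high rank of Myd88 by gene ends is thus that of a site shared with its neighbour. The weak region over the Myd88 start also lies within 1 kb of an end of Acaa1a. The strongest region counted for Myd88 (chr9:119322020-119323365) ranged from 98.7 to 99.5 in the DTx lists and from 98.9 to 99.5 in the untreated lists. It lies within 1 kb of an end of Oxsr1, and a further region counted for Myd88 lies within 1 kb of an end of Xylb. The 250 bases before the Myd88 start (chr9:119340019-119340268, minus strand, RefSeq) are shown because they lie in the weak region over the start, with motif matches in capitals.
Myd88: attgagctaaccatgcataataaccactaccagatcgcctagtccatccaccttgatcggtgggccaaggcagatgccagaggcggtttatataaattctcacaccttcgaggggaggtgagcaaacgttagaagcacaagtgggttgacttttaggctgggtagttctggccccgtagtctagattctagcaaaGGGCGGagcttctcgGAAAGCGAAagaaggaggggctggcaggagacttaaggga
GGGCGG lay 55 to 50 bases before the start and GAAANNGAA 40 to 32 bases before it. In this window the 2 motifs did not overlap.

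By class, 5 of 5 surface receptor genes, 2 of 3 endosomal receptor genes and 2 of 2 of the others had a gene-end peak in all 6 lists. The median over genes of their median percentile was 59.8 for surface receptors (43.9 to 93.3), 49.7 for endosomal receptors (0 to 96.3, with Tlr7 at 0) and 84.0 for the other 2 (69.8 to 98.3). The order of the receptor classes depended on the 1 kb limit. With a limit of 2 kb the middle gene was Tlr1 at 71.5 among surface receptors and Tlr7 at 74.8 among endosomal ones. The 98.3 of Myd88 is that of the site at Acaa1a, and the peak over its own start had a median of 41.5. The classes overlapped, and each of the receptor classes held both a gene above percentile 93 and a gene below 50. Of 7 of these genes with a start in the RefSeq table, 7 had a peak over a start in all 6 lists, as had 48.4% of 17491 genes. The median of their median percentiles was 57.4, against 85.5 over all genes with such a peak.

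In and within 50 kb of the 10 genes lay 101 regions of the merged lists. Of these, 53 (52.5%) were in all 6 lists, against 44.1% of all regions. In 1 list alone were 17 of the 101, against 12785 of 70174 over all regions. The share in all 6 lists was 59.1% for surface receptors (26 of 44), 45.7% for endosomal receptors (16 of 35) and 50% for Unc93b1 and Myd88 (11 of 22). Tlr7 and Tlr3 were lowest, with 6 of 17 and 2 of 6 regions in all lists. No region was in every DTx and no untreated list, a pattern of 0.705% of all regions. More DTx than untreated lists held 31 of the 101 regions and more untreated lists held 5, with 25516 and 6174 of 70174 over all regions, where the DTx lists are also longer on average. Of the 101 regions, 15 lay within 1 kb of an end of another gene.

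**Figure D3:**
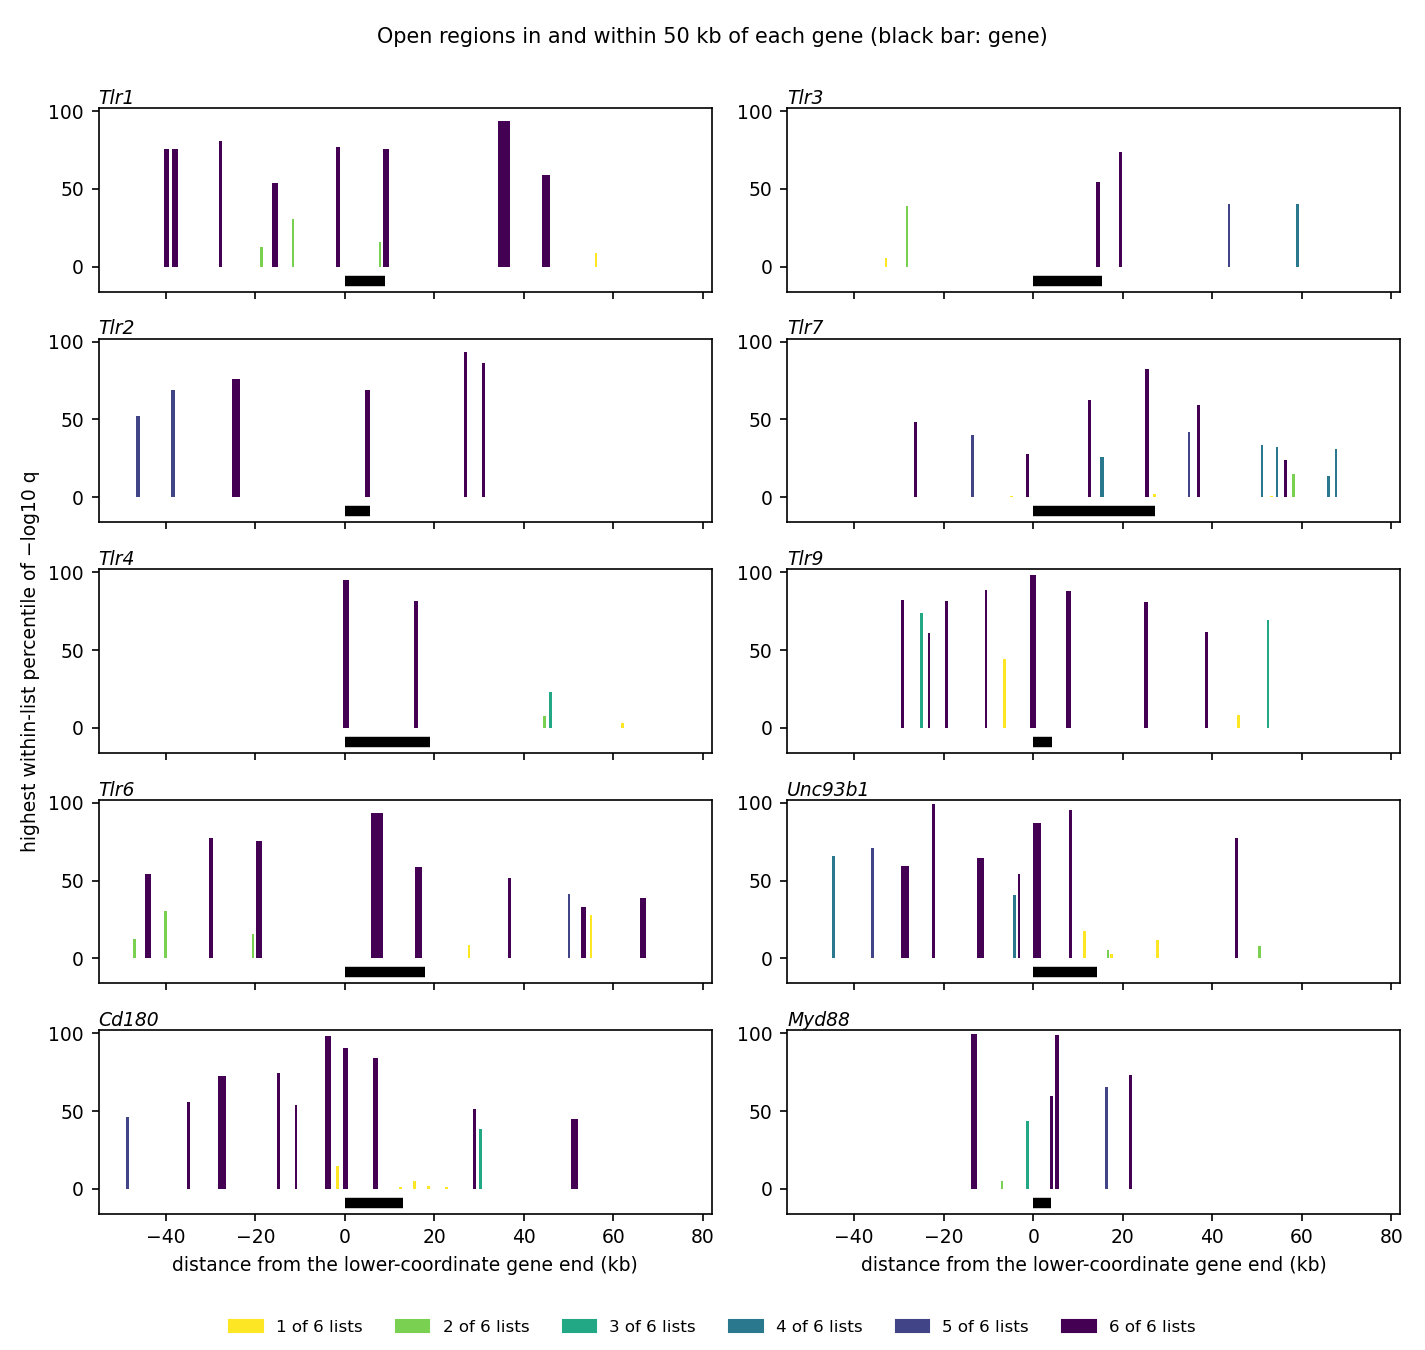
Regions in and within 50 kb of each gene (panels), by distance in kb from the lower-coordinate gene end, with the highest within-list percentile of −log10 q as height and the number of lists that hold the region as shade. Black bars are the genes. Tlr9, Unc93b1, Myd88, Cd180 and Tlr4 have regions above percentile 94, while the strongest regions of Tlr3 and Tlr7 reach 74.0 and 82.5.

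The comparison of DTx with untreated libraries addresses the openness of these genes in immature B cells on day 8 after the first toxin injection, when γδ T cells were to be depleted. In equal-length lists, the strongest gene-end peak of Cd180 ranked 6.52 points higher in the DTx libraries and that of Myd88 0.819 points higher, with no overlap between groups. This state was found for 1.22% of 10172 genes in this direction, and for 2 of the 9 genes tested here. The opposite state, every DTx library below every untreated one, was found for 7.84% of genes and for 0 of these 9. The smallest p that 20 relabellings allow is 0.1, which 921 genes reached, so no gene could pass 0.05, and every adjusted p was 1. Over all genes the median difference was −1.30 points, and over the 9 genes here −1.17 points, with 4 higher and 5 lower.

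Cd180 had equal-length percentiles of 82.6, 85.6 and 81.0 in DTx 1, 2 and 3 and of 80.4, 70.2 and 79.0 in untreated 1, 2 and 3. The means were 83.0 ± 2.33 in DTx and 76.5 ± 5.49 in untreated libraries (SD, n = 3 each; exact two-sided permutation p = 0.1, adjusted p = 1). The lowest DTx and the highest untreated value were close, and untreated 2 was well below the others. Without untreated 2 the difference was 3.37 points. Within the broad layout it was 7.95 points and within the narrow layout 3.65 points. The deposited lists gave overlapping groups, at 85.7 in DTx 1 against 86.3 in untreated 3. Fold enrichment of the same peak was 4.09 and 3.47 in the broad DTx lists and 3.67 and 3.07 in the broad untreated lists, and 6.66 in DTx 1 against 6.91 in untreated 3 in the narrow layout, so the groups overlapped by that measure.

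Myd88 had equal-length percentiles of 98.1, 98.0 and 98.3 in the DTx lists and 97.1, 97.6 and 97.1 in the untreated lists. The means were 98.1 ± 0.139 in DTx and 97.3 ± 0.304 in untreated libraries (SD, n = 3 each; exact two-sided permutation p = 0.1, adjusted p = 1). This concerns the peak at Acaa1a. At the start of Myd88 the groups were apart in the other direction, with equal-length percentiles of 1.82, 11.9 and 1.51 in the DTx lists and 31.2, 42.1 and 38.4 in the untreated lists. In the deposited lists, given above, the same region had overlapping groups, with 40.5 and 42.4 in DTx 3 and 2 above the 31.2 of untreated 1. With a gene end of 500 bp, which leaves that region as the gene-end peak, the difference was −32.2 points. The direction for Myd88 therefore depended on which of both sites was read.

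The other 7 genes tested had overlapping groups. The difference, DTx minus untreated, was −10.3 points for Tlr3 and −4.55 for Tlr6 (exact permutation p = 0.4 for each), −2.18 for Tlr2 (p = 0.9, exact permutation), −1.25 for Tlr9 (exact permutation p = 0.4), −1.17 for Tlr4 (exact permutation p = 0.8), 0.117 for Tlr1 and 1.29 for Unc93b1 (exact permutation p = 1 for each). For Tlr2 the layouts differed in sign, with 7.79 points in the broad and −22.1 in the narrow lists. For Tlr3 they were −18.8 and 6.75 points, and for Tlr1 5.75 and −11.1 points, in the broad and the narrow lists. Unc93b1 (4.45 and −5.03 points) and Tlr4 (−2.82 and 2.14 points) also differed in sign between the broad and the narrow lists, and Tlr6 (−2.46 and −8.71 points) and Tlr9 (−1.79 and −0.185 points) did not. Single libraries moved the values too, to between −16.1 (without untreated 3) and −2.46 points (without untreated 1) for Tlr3 and to between −8.50 (without untreated 2) and −0.976 points (without DTx 2) for Tlr6.

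Of the 44 regions near these genes that were in all 6 equal-length lists, 2 had every DTx library above every untreated one, against 3.27% of 26152 regions, and 3 had every DTx library below, against 5.72%. The higher ones were the Cd180 start and the site at Acaa1a. The lower ones were the Myd88 start, the region inside Tlr6 and the region 4541 bp from the Tlr3 start. The Tlr6 region stood at 86.4, 78.4 and 79.9 in the DTx lists and 90.01, 92.7 and 87.7 in the untreated lists, and DTx 2 and 3 are the lists in which it was called as 1 wide peak. Peaks over the Tlr6 start at 64959166 itself had percentiles in the deposited lists of 41.0, 85.9 and 87.8 in DTx 1, 2 and 3 and of 32.0, 19.96 and 59.7 in untreated 1, 2 and 3, the other direction, with DTx 1 below untreated 3. The part of the wide calls in these differences was not tested. The Tlr3 region stood at 57.1, 54.2 and 47.8 in the DTx lists and 60.9, 60.0 and 60.0 in the untreated lists.

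No gene described here was called as different between the groups in its number of peaks in or within 50 kb. In the limma fit on log2(peaks + 0.5) over 12568 genes, 60 genes (0.477%) were higher and 28 (0.223%) lower in DTx at a Benjamini-Hochberg adjusted p under 0.05, and 87 of these 88 had the same peak number in all 3 libraries of each group. Of the 8 genes described here with enough peaks, 0 were called and 0 had an unadjusted p under 0.05. Tlr3 and Tlr4 were under the minimum mean of 3 peaks. The median log2 difference was 0.0399 over the 8 genes and 0.0121 over all genes. No gene here had groups apart in peak number, a state of 2.27% of genes in either direction.

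Tlr7 had the largest difference, with 6, 3 and 4 peaks in the DTx lists and 9, 7 and 4 in the untreated lists (log2 difference −0.55 ± 0.39 SE, limma adjusted p = 0.848). Tlr6 had 9, 6 and 7 peaks in the DTx lists and 10, 10 and 9 in the untreated lists (−0.39 ± 0.16 SE, limma adjusted p = 0.848, unadjusted 0.0604). In the deposited lists both had a difference of the other sign, at 0.16 for Tlr7 and 0.08 for Tlr6. Tlr2 had 6 peaks in each DTx list and 4, 6 and 6 in the untreated lists (0.18 ± 0.17 SE, limma adjusted p = 0.848). The other 5 fitted genes differed by 0.10 or less. Tlr9 had 7, 10 and 10 peaks in the DTx lists and 8, 8 and 10 in the untreated lists, and was called as higher in DTx when the 4 broad lists alone were fitted (log2 difference 0.30, limma adjusted p = 0.000293), where it had the same peak number in both libraries of each group.

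**Figure D4:**
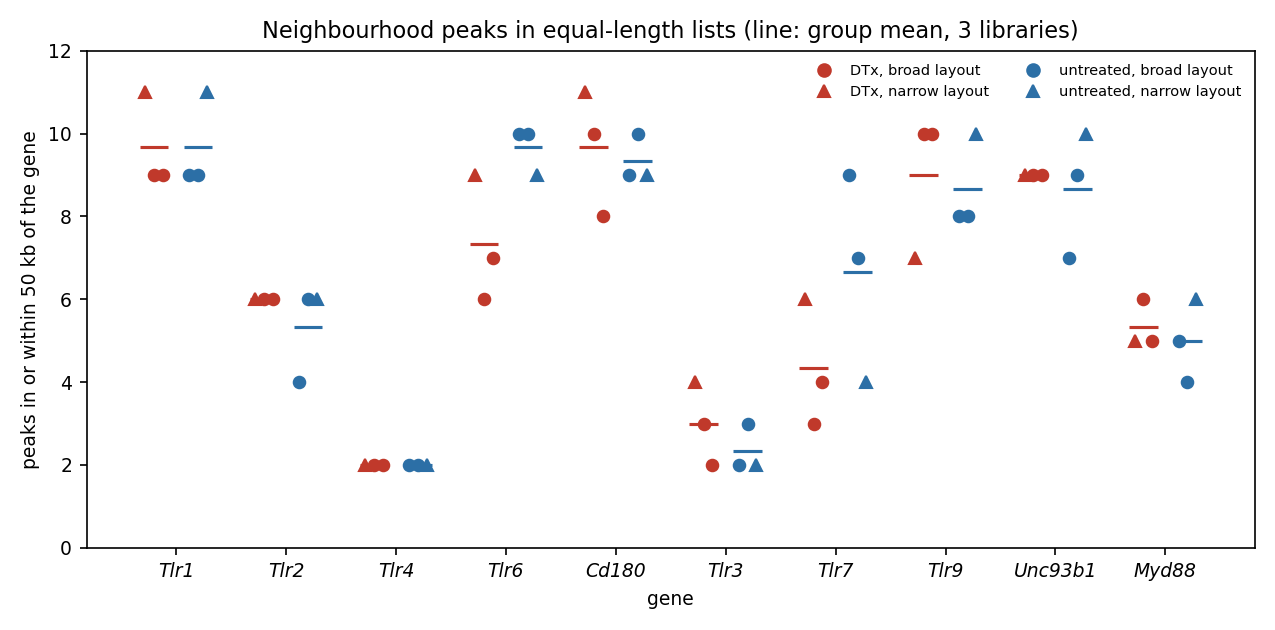
Peaks in or within 50 kb of each gene in the equal-length lists of 3 DTx libraries (left of each pair) and 3 untreated libraries (right), with a line at each group mean. DTx and untreated points overlap in range or touch for every gene, and Tlr7 has the widest spread, from 3 to 6 in DTx and 4 to 9 in untreated libraries.

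Most other genes of the pathway were called at an end in every list. Of 32 such genes, 25 were called there in all 6 lists, against 49.2% of protein-coding genes, and 4 (Tlr8, Tlr11, Tlr13 and Lbp) in none. Tlr8 encodes another endosomal receptor related to Tlr7, in the mouse Tlr11 and Tlr13 encode endosomal sensors of profilin and of bacterial ribosomal RNA, and Lbp encodes a plasma protein that carries lipopolysaccharide. All 6 adaptors and all 10 kinases and ubiquitin ligases on the list were called in every list, with median percentiles of 79.9 and 81.5, against the 84.4 of all genes called in every list. The 4 genes for chaperones, trafficking and processing were too, with a median of 96.9. Among them Hsp90b1 and Cnpy3, which encode the folding chaperone of Toll-like receptors and its partner, ranged from 97.5 to 99.2 and from 91.2 to 98.6, while Slc15a4, a transporter needed for endosomal receptor signalling, ranged from 9.40 to 35.6. Ly86 and Ly96, the partners of Cd180 and Tlr4, were called in all lists, with medians of 84.0 and 91.6.

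Unequal numbers of libraries were seen for 3 of the 32 pathway genes, 1 with more DTx lists and 2 with more untreated lists. Over all genes, 2.36% had more untreated than DTx lists, and the share with more DTx lists is not given here. Cd14, the lipopolysaccharide co-receptor, was called in 3 DTx and 2 untreated lists, Tlr5, the flagellin receptor, in 1 DTx and 2 untreated lists, and Irf5, a transcription factor downstream of Myd88, in 0 DTx and 1 untreated list. Their peaks ranked at most at percentile 32.3. Of 27 pathway genes with enough peaks for the limma fit, 1 was called. Cnpy3 had 6 peaks in each DTx list and 5 in each untreated list (log2 difference 0.24 ± 0.01 SE, limma adjusted p = 0.00218), and no pathway gene was called when the residual SD was given a floor, with the deposited lists, with a window of 20 or 100 kb, or with peaks of −log10 q of at least 5.

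Genes with a pattern most like those of Tlr7, Tlr9 and Cd180 were ranked by the Euclidean distance of the 6 gene-end percentiles. For Tlr9 they were Crebl2, Ano10 and Ddx10, at distances of 1.14, 1.27 and 1.31 points over 6 libraries. For Cd180 they were Ndufa13 and Tssk6, which share a peak, at 4.5 points and Ddx18 at 5.16 points. For Tlr7 they were Qser1, Asic5 and Stxbp5l, at 9.71, 11.5 and 11.6 points. These 3 genes all differed from Tlr7 in untreated 1 and untreated 3, and Stxbp5l also in DTx 2 and DTx 3.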

How the data were processed

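Deposited peak lists of 6 ATAC-seq libraries (3 DTx, 3 untreated) were used. Per the submitters' processing notes, the tools were Trim Galore 0.4.3, Bowtie2 2.3.2 (build mm10) and MACS2 2.1.1. The sources used here give neither Tn5 shifting, duplicate removal nor read totals. Per the file headers, each list, 1 per library, gives a peak's position, its pileup (a coverage signal) and its fold enrichment over background, a ratio. The deposited −log10 p and −log10 q columns have damaged headers and were identified by order and values.

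The 2 mitochondrial peaks per list were left out. Percentiles of −log10 q were taken within each list. Peaks within 1 kb of either gene end (GRCm38.p6 gene table) and with their midpoint in a gene or within 50 kb were assigned to it. Overlapping peaks of the 6 lists were merged into regions, held where at least 1 bp of a peak overlaps. Percentiles were compared per gene by an exact two-sided permutation test, adjusted over all genes with a value in every equal-length list. Peak numbers in equal-length lists were analysed by limma 3.58.1 (R 4.3.3; trend, robust) on log2(peaks + 0.5) where the mean was 3 peaks or more, with Benjamini-Hochberg adjustment. A fold on that scale understates differences of genes with few peaks. The fit was also run on simulated counts. These were drawn with spread between libraries, whereas 87 of the 88 genes called had none within either group, so no result here rests on them. Other steps used Python 3.11.15, NumPy 2.4.6, pandas 2.3.3 and SciPy 1.17.1. RefSeq starts were matched for 7 of the 10 genes.

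The genes and lists were chosen with earlier results of these data known. All 10 genes are named, as are pathway genes with a gene-end peak in no list or in unequal numbers of DTx and untreated lists, neighbours whose end lies within 1 kb of a counted region, and the 3 genes most like Tlr7, Tlr9 and Cd180. Other pathway genes and markers named were chosen after their values were seen. Alternatives covered list length, layout, distance limits, peak strength, pseudocount, the low-number filter, a variance floor, overlap, the replicate number and each library left out. The result of 1 B lineage marker is not reported here.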

Additional observations from a re-analysis of the deposited data

How the results depend on the processing

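The number of genes called by limma in DTx against untreated libraries depended on most settings. Genes higher in DTx were 60 in the fit reported, 642 with the broad lists alone, 109 with no filter, 31 with a window of 20 kb, and 0 with the deposited lists, a window of 100 kb, peaks of −log10 q of at least 5, or a variance floor. Genes lower in DTx were 28 as reported, 44 with the layout as a covariate, 243 with the broad lists alone, 53 with no filter, and 0 in the same 4 settings, where 358, 460, 74 and 396 genes had an unadjusted p under 0.05. Leaving out 1 library gave 105 to 189 genes higher and 53 to 120 lower. Of the genes described, 0 were called except with the broad lists alone, where 1 was (Tlr9). Same-numbered libraries did not deviate together in every pair (r = 0.438, 0.0498 and 0.327), against r of −0.394 to 0.202 in the other pairs. DTx 2 correlated best with untreated 3 (r = 0.122), so the numbers are not taken as pairs. With the replicate block 58 genes were higher, 29 lower and 0 of the genes described called. Genes with an unadjusted limma p under 0.05 were 843 with the block and 394 in the fit reported. A block cannot change a difference of group means where each replicate number occurs once per group, so no percentile difference was refitted with it.

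The replicate block, the layout as a covariate, the variance floor and the fit with no filter cannot change a log2 difference. That of Tlr1 was 0 as reported, so no change of sign was counted for it. It ranged from −0.251 (window of 100 kb) to 0.287 (strong peaks alone). With all of these counted, 12 of 127 log2 differences under alternatives changed sign, all of them short of the threshold. They were Cd180 with the broad lists alone (−0.0802) and without DTx 1 (−0.0562), Unc93b1 without untreated 1 (−0.0722, and 0.171 without untreated 3), Tlr6 and Tlr7 with the deposited lists (0.0838 and 0.16) and with strong peaks alone (0.69 and 0.70), Tlr9 without DTx 2 or 3 (−0.0395, and 0.203 without DTx 1) and without untreated 1 or 2 (−0.00938), and Myd88 without untreated 2 (−0.0402, and 0.225 without untreated 3). Of 103 percentile differences, 16 changed sign. Those under the replicate block, counted among the 103, repeat the reported values and could not change. The deposited lists gave 6.81 for Tlr2, 0.914 for Tlr4, 7.43 for Tlr6 and 1.09 for Tlr3, and strong peaks alone gave 1.74 for Tlr4, 5.32 for Tlr3 and 0.26 for Tlr9. Tlr2 was at 7.79 with the broad lists alone, 4.69 without DTx 1 and 0.918 without untreated 3, and was lowest without DTx 3 (−6.78). Unc93b1 was at −7.65 without DTx 2 and −7.14 without untreated 2, against 10.5 without DTx 3, Tlr1 at −8.06 without DTx 3 and −9.14 without untreated 1, against 7.13 without untreated 2, Tlr4 at 1.82 without DTx 3, against −3.52 without DTx 1, and Myd88 at −32.2 with a gene end of 500 bp. The cause of these changes was not tested, apart from the Myd88 one, where another peak is read. Genes with groups apart were 2 as reported, 1 with the deposited lists, 1 with strong peaks alone, 5 with the broad lists alone, which compare 2 libraries a group, and 2 to 3 without 1 library. The share over all genes was taken for the reported setting alone. Groups of fewer libraries are apart more readily, so the other counts cannot be read as more or fewer genes than usual. The mean number of genes with a gene-end peak differed by −0.333 as reported and by 1 with strong peaks alone, where untreated 1 had 6, and by −0.5 to 0 without 1 library. Regions in all 6 lists were 53, or 34 where a peak had to cover at least 50% of the region. Start windows and the limit of 2 kb in the deposited lists were chosen after seeing the data. Read depth is unknown, so a peak missing from a short list does not show that the site was closed.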
